A study of Sus scrofa with 3 samples.

Results

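Solute carriers are the membrane proteins that move nutrients, ions, metals and metabolites across the plasma membrane and the membranes of organelles. Their genes are described here across 3 pig cell populations. These are mesenchymal stem cells derived from bone marrow (BM-MSC), marrow cells that the labels call attached (BMAC), and mononuclear cells of peripheral blood (PBMC). Of 26466 gene symbols in the count files, 321 have the form of a numbered solute carrier of an A subfamily, such as SLC2A5, and 154 of these are the members. A member had at least 10 counts per 1000000 of the library total (CPM) in at least 1 library, so expression itself chose the list. The symbols SLC2A1, SLC2A3, SLC16A1, SLC16A3 and SLC29A1 were left out by name. The other 162 symbols stayed under 10 CPM in every library, and 7 of all 321 had 0 counts throughout. Subfamilies with other letters, such as SLC35B, fall outside the form and were not analysed here.

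The libraries are 3' end counts (Lexogen QuantSeq, from 500 ng of total RNA extracted with Trizol) with 1 library per population. The labels give the species and the population alone, and not the breed, the age, the number of animals, the culture or the way the cells were isolated. No difference between populations therefore has a replicate check, and no test between them was made. Instead a gene was counted as higher or lower by the 4-fold rule when log2((CPM + 1)/(CPM + 1)) of the libraries compared was at least 2 in size and the higher library had at least 10 CPM and 10 counts. A fold given below is the plain CPM ratio without the added 1. The 95% intervals in parentheses are exact conditional intervals that cover counting error only, not the spread between animals or preparations. In such bulk populations, fewer cells of a type and less RNA per cell cannot be told apart.

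As background, carriers are grouped into families by sequence, and a family often shares its substrates. Amino acid exchangers of the SLC7 family work as pairs of a light chain with the heavy chain SLC3A2 or SLC3A1. Zinc enters the cytosol through SLC39 carriers (ZIP) and leaves it through SLC30 carriers (ZnT), iron leaves the cell through SLC40A1 (ferroportin), and SLC25 carriers link the mitochondrial matrix with the cytosol. Several carriers are known for their place in blood cells, among them SLC11A1, which removes divalent metals from the phagosomes of macrophages.

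Total counts were 17069344 in BM-MSC, 15122997 in BMAC and 15445903 in PBMC, so that 10 CPM stood for 171, 152 and 155 counts. The 12 stromal marker genes summed to 17525 CPM (BM-MSC) and 23432 CPM (BMAC) against 95.9 CPM (PBMC). The 15 leukocyte marker genes summed to 11.9 CPM (BM-MSC) and 13.4 CPM (BMAC) against 5864 CPM (PBMC). Of the leukocyte markers, CD3D, CD79B, CSF1R and NKG7 had 0 counts in BM-MSC, and CD3D, MS4A1, CD79B, CORO1A and LYZ had 0 counts in BMAC. Summed levels of the stromal and leukocyte markers did not go against the labels. The part that the mixture of cell types within PBMC has in the values below was not tested. In the order BM-MSC, BMAC, PBMC, platelet markers summed to 55.0, 40.7 and 42.0 CPM, erythroid markers to 3.63, 5.16 and 12.4 CPM, and endothelial markers to 19.0, 33.2 and 169 CPM. Wherever 3 values follow one another below, they stand in this order. The endothelial sum in PBMC came mostly from PECAM1, at 145 CPM, and the next highest of these markers, TEK, stood at 12.2 CPM. The platelet sums in BM-MSC and BMAC came mostly from GP9, at 45.7, 34.1 and 18.2 CPM. ITGA2B went the other way, at 1.82, 0.595 and 14.8 CPM.

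Members took 0.575% of all counts in BM-MSC, 0.695% in BMAC and 0.816% in PBMC. At least 10 CPM was reached by 126 members in BM-MSC, 123 in BMAC and 115 in PBMC, and by 87 members in all 3. Of 31 members that reached it in a single library, 6 (3.9%) did so in BM-MSC, 6 (3.9%) in BMAC and 19 (12.3%) in PBMC, close to the 4.13%, 3.65% and 13.1% of the 11861 genes with at least 10 CPM in a library. Over the 3 libraries 32 members (20.8%) stayed within 2-fold, where 34.1% of those genes did. At least 4-fold between the highest and the lowest library were 57 members (37.0%), against 35.0% of those genes.

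BM-MSC were first set against PBMC. Carriers split between both sides. An iron exporter and carriers of inositol and choline were higher in BM-MSC, and zinc carriers lay on either side. Organellar sodium-proton exchangers, metal carriers of the SLC11 family and a peptide carrier that overlaps EAF2 were higher in PBMC. Of 148 members measured in this pair, 20 (13.5%) were higher and 25 (16.9%) lower in BM-MSC, where 14.3% and 15.7% of all 11428 genes measured were. These shares lie close to those of all genes. The median log2 ratio of the measured members was 0.33, beside -0.16 over all genes. This sign depended on the floor, since the median over the carriers reaching it was -0.23 with a floor of 1 CPM and -0.79 with 50 CPM. Of the 20 higher members 16 were under 10 CPM in PBMC, and of the 25 lower members 14 were under 10 CPM in BM-MSC. Such a gene was measured through its higher library alone, so its ratio could only favour that library. With 5 CPM added in place of 1, SLC5A6, SLC6A8, SLC6A17, SLC8A3, SLC26A11, SLC38A7, SLC39A7, SLC43A3 and SLC44A1 were no longer past the rule on the BM-MSC side, nor were SLC5A10, SLC13A5, SLC30A7, SLC37A2, SLC37A3 and SLC46A2 on the PBMC side. Scaling moved this balance. With TMM factors the median of all genes stood at 0.23 and that of the members at 0.69, and 56.8% of the member calls were on the BM-MSC side in place of 44.4% (59.1% with median-of-ratios factors). The calls over all genes moved alike, to 58.5% (59.5%) in place of 47.6%. With both sets of factors SLC17A9, SLC25A1, SLC25A39, SLC41A2 and SLC48A1 also passed the rule on the BM-MSC side, and with median-of-ratios factors SLC1A5 did as well.

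BMAC were then set against the same PBMC library. Of 148 members measured, 19 (12.8%) were higher and 23 (15.5%) lower in BMAC, where 14.0% and 12.8% of all 11371 genes measured were. Of these, 14 of the higher members were under 10 CPM in PBMC and 15 of the lower ones were under it in BMAC. With 5 CPM added, SLC7A5, SLC10A3, SLC17A9, SLC25A5, SLC39A14 and SLC41A1 were no longer past the rule on the BMAC side, nor were SLC1A2, SLC5A10, SLC6A4, SLC16A7, SLC30A7, SLC37A2, SLC39A10 and SLC46A2 on the PBMC side. The median log2 ratio was 0.18, beside -0.12 over all genes, and was -0.30 with a floor of 1 CPM and -0.53 with 50 CPM. With TMM factors these medians stood at 0.52 and 0.21, and 57.8% of the member calls were on the BMAC side in place of 45.2% (57.8% with median-of-ratios factors as well). Over all genes these shares were 60.0% (60.3%) in place of 52.3%. With both sets of factors SLC2A12, SLC7A11, SLC25A22, SLC25A29, SLC25A37, SLC26A11 and SLC43A3 also passed the rule on the BMAC side. BM-MSC and BMAC differed less from each other. Of 135 members measured in that pair, 2 (1.48%) were higher and 5 (3.70%) lower in BM-MSC, where 2.90% and 3.21% of all 10303 genes measured were, and 109 (80.7%) lay within 2-fold, as did 80.7% of all genes.

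**Figure D1:**
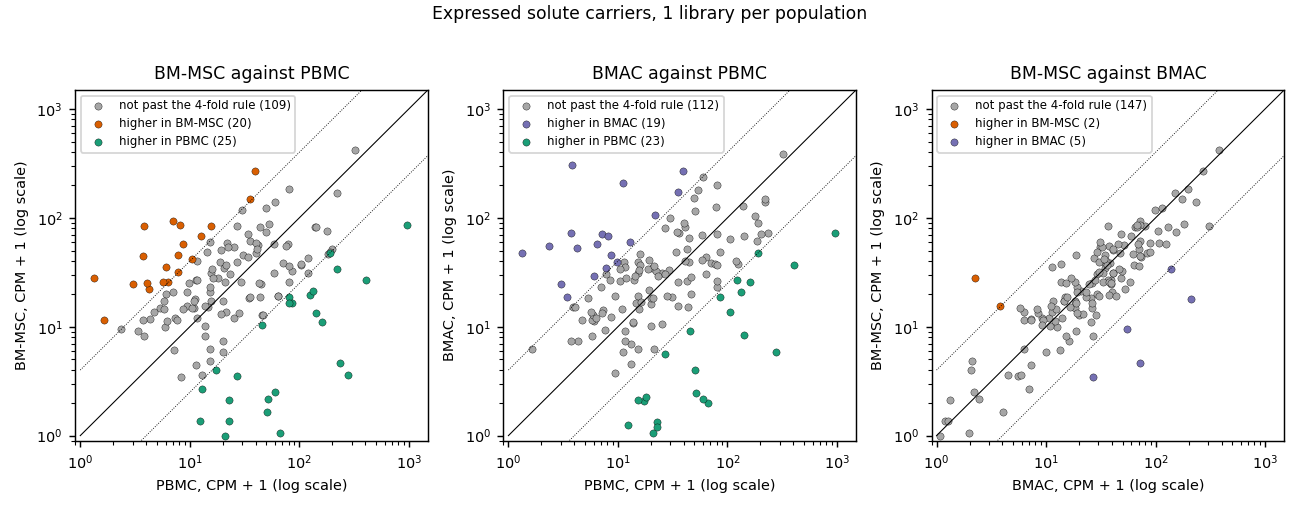
CPM + 1 of the 154 expressed solute carriers on log scales, for BM-MSC against PBMC (left), BMAC against PBMC (middle) and BM-MSC against BMAC (right). Each point is 1 gene in 1 library per axis, the solid line marks equal levels and the dotted lines a 4-fold difference. The 20 and 25, 19 and 23, and 2 and 5 coloured points are the genes past the 4-fold rule, and the points lie closest to the line on the right.

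In each pair with PBMC, members past the rule lay on both sides among the 22 metal and haem and 15 sugar and inositol carriers. The same held for amino acid, acid-base and mitochondrial carriers. It also held for carriers of sodium, potassium, chloride and calcium, and for those of vitamins, choline, carnitine and nucleosides. The 6 carriers of nucleotide sugars and acetyl-CoA held 0 members past the rule in any pair. Of the 32 mitochondrial and peroxisomal carriers, 3 were higher and 1 lower among 30 measured in BM-MSC against PBMC. Group medians in BM-MSC against PBMC ran from -1.15 for phosphate, sulfate and carboxylate carriers to 0.83 for metal carriers. The group, family and list counts below rest on few genes each and stand beside the shares over all genes. These were 14.3% higher and 15.7% lower (BM-MSC against PBMC), 14.0% and 12.8% (BMAC against PBMC), and 2.90% and 3.21% (BM-MSC against BMAC).

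**Figure D2:**
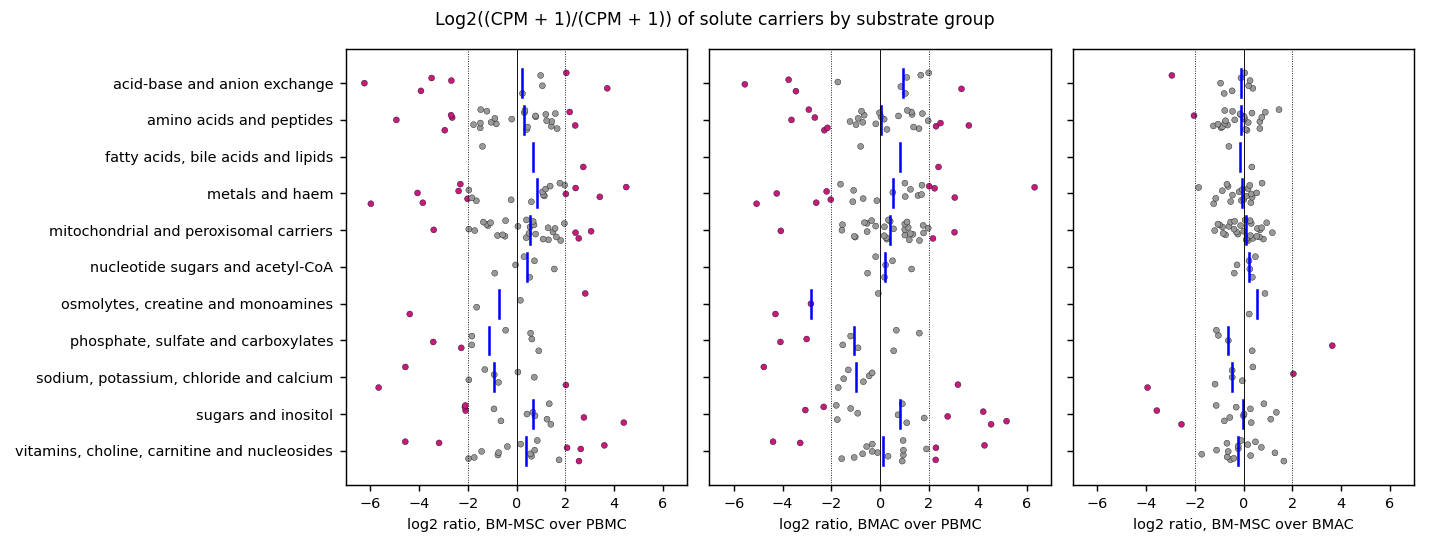
Log2((CPM + 1)/(CPM + 1)) of measured solute carriers in 11 substrate groups, for BM-MSC over PBMC, BMAC over PBMC and BM-MSC over BMAC. Points are genes with at least 10 CPM in a library of the pair, the blue bar is the group median, dotted lines and pink points mark the 4-fold rule. In the pairs with PBMC, metal, sugar, amino acid, acid-base and mitochondrial carriers reach past both dotted lines. So do vitamin and choline carriers and those of sodium, potassium, chloride and calcium. Nucleotide sugar carriers stay between the lines.

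Of the 22 metal carriers, 4 were higher and 6 lower in BM-MSC against PBMC, where 14.3% and 15.7% of all genes were. In BMAC against PBMC, 4 were higher and 5 lower of 21 measured, where 14.0% and 12.8% of all genes were. Zinc carriers lay on both sides and the iron exporter on the marrow side. SLC40A1, the iron exporter ferroportin, stood at 84.0 CPM (BM-MSC) and 303 CPM (BMAC) against 2.78 CPM (PBMC). It was 30.2-fold higher in BM-MSC (22.3 to 41.9) and 109-fold higher in BMAC (80.8 to 151), and BMAC exceeded BM-MSC by 3.61-fold (3.40 to 3.84), below the rule. SLC11A1, the phagosomal metal carrier also called NRAMP1, had 1 count in BM-MSC and 15 counts in BMAC against 1015 counts in PBMC. In CPM these are 0.0586, 0.992 and 65.7, a ratio of 1122-fold (201 to 44347) towards PBMC in the first pair and 66.3-fold (39.98 to 119) in the second. SLC11A2, the divalent metal carrier DMT1 that brings iron out of endosomes, stood at 10.1 CPM (BM-MSC) and 24.9 CPM (BMAC) against 158 CPM (PBMC). It was 15.7-fold (13.5 to 18.5) and 6.36-fold (5.70 to 7.10) higher in PBMC.

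Zinc carriers of the SLC39 family went both ways. Of 10 members, 3 were higher and 2 lower in BM-MSC against PBMC, and 2 were higher and 2 lower in BMAC. SLC39A1, a ZIP carrier of the plasma membrane, stood at 85.1 CPM (BM-MSC) and 66.7 CPM (BMAC) against 7.12 CPM (PBMC). It was 12.0-fold (9.84 to 14.6) and 9.36-fold (7.68 to 11.5) higher in the marrow cells. SLC39A14, which carries zinc, iron and manganese, stood at 67.2, 59.1 and 11.8 CPM in BM-MSC, BMAC and PBMC, 5.70-fold (4.87 to 6.71) more in BM-MSC than in PBMC and 5.02-fold (4.27 to 5.92) more in BMAC. SLC39A7, which releases zinc from the endoplasmic reticulum, stood at 41.2, 32.9 and 9.45 CPM and passed the rule in BM-MSC only, at 4.36-fold (3.65 to 5.25), with 3.48-fold (2.89 to 4.22) in BMAC.

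On the other side, SLC39A8, which carries zinc and manganese, had 6 counts in BM-MSC and 3 in BMAC against 334 in PBMC. It was 61.5-fold (28 to 169) and 109-fold (37.0 to 531) higher in PBMC. SLC39A10 stood at 15.3 and 17.6 CPM in BM-MSC and BMAC against 84.2 CPM in PBMC, and it overlaps DNAH7, which stood at 7.5 and 6.15 CPM against 35.9 CPM. In BMAC, SLC39A10 was not past the rule with TMM or median-of-ratios factors. The 5 members of the SLC30 family, which take zinc out of the cytosol, had a median log2 ratio of -1.65 in BM-MSC against PBMC and, over the 4 measured, -0.91 in BMAC against PBMC, with 1 past the rule in each. SLC30A7, a carrier of the Golgi, was past the rule at 46.4 and 46.1 CPM in BM-MSC and BMAC against 191 CPM in PBMC, 4.11-fold (3.80 to 4.45) and 4.14-fold (3.81 to 4.50), and was not past it with TMM or median-of-ratios factors. SLC30A6, in contrast, lay between 16.1 and 19.0 CPM in the 3 libraries.

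Magnesium carriers were also divided. SLC41A1 stood at 24.2 CPM (BM-MSC) and 38.2 CPM (BMAC) against 8.74 CPM (PBMC), and passed the rule in BMAC (4.37-fold, 3.62 to 5.31). SLC41A3, which overlaps ZXDC, was 5.22-fold higher in PBMC than in BM-MSC (4.56 to 5.98), at 15.3, 25.3 and 80.1 CPM, though not past the rule with TMM or median-of-ratios factors. SLC41A2 stood at 117, 97.9 and 29.1 CPM, just below the rule with log2 ratios of 1.97 and 1.71. SLC48A1, a haem carrier of endosomes that overlaps HDAC7, stood at 47.9, 28 and 13.3 CPM.

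**Figure D3:**
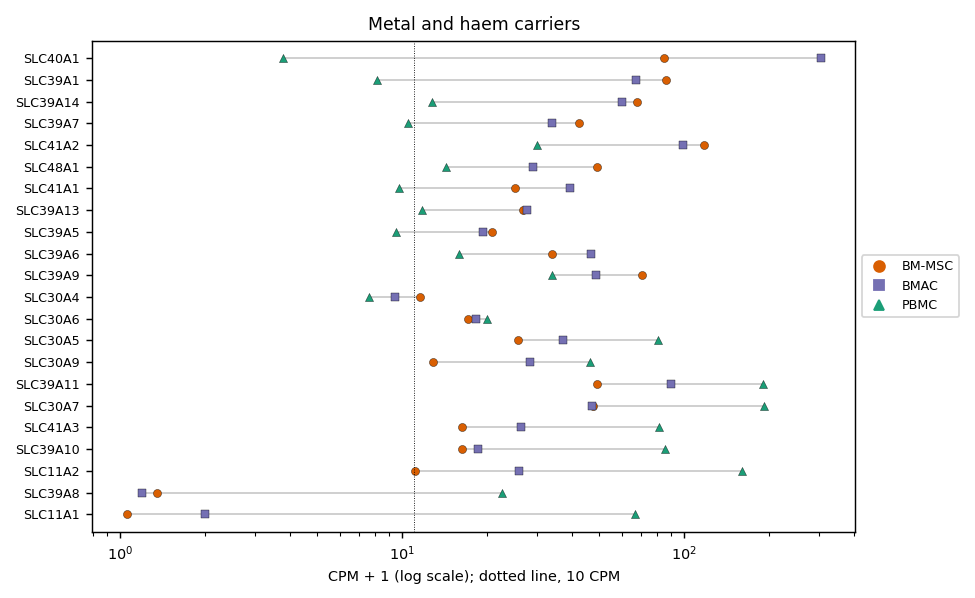
CPM + 1 on a log scale of the 22 metal and haem carriers in BM-MSC, BMAC and PBMC, 1 library each, ordered by the ratio of BM-MSC to PBMC. SLC40A1 lies far higher in both marrow libraries than in PBMC (84.0 and 303 against 2.78 CPM), and SLC11A1 and SLC39A8 lie near the left edge in both marrow libraries.

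Other genes of iron and zinc handling gave further context. Of 19 listed genes, 13 were measured in each pair with PBMC, 2 higher and 2 lower in the marrow cells in each. Between BM-MSC and BMAC, 0 of 12 passed the rule. The zinc-sensing factor MTF1 was among those measured. The metallothioneins MT1A and MT3 stayed under 10 CPM in every library, and MT2A had no row. FTL and FTH1, the ferritin chains that store iron, stood at 6071 and 2492 CPM in BM-MSC and at 3578 and 2990 CPM in BMAC, against 229 and 363 CPM in PBMC. FTL was 26.5-fold higher in BM-MSC (25.7 to 27.4) and 15.6-fold higher in BMAC (15.1 to 16.2). TFRC, the transferrin receptor, stood at 6.09 CPM (BM-MSC) and 13.0 CPM (BMAC) against 84.7 CPM (PBMC), and was 13.9-fold (11.4 to 17.2) and 6.51-fold (5.60 to 7.60) lower in the marrow cells. STEAP3, the endosomal iron reductase, was lower as well, at 3.69 and 1.19 CPM against 19.0 CPM. CYBRD1, an iron reductase of the cell surface, was at 463 CPM (BM-MSC), 146 CPM (BMAC) and 138 CPM (PBMC), below the rule.

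Sugar and inositol carriers had median log2 ratios of 0.67 in BM-MSC and 0.82 in BMAC against PBMC. Of 14 measured in BMAC against PBMC, 4 were higher and 2 lower, and of 13 in BM-MSC against PBMC, 2 were higher and 3 lower. SLC2A13, the proton-coupled myo-inositol carrier, stood at 266 CPM (BM-MSC) and 268 CPM (BMAC) against 38.5 CPM (PBMC). It was 6.90-fold (6.34 to 7.53) and 6.96-fold (6.38 to 7.60) higher. SLC2A10, also called GLUT10 and altered in human arterial tortuosity syndrome, had 457 counts in BM-MSC and 711 in BMAC against 5 in PBMC. These are 26.8, 47.0 and 0.324 CPM, or 82.7-fold (35.2 to 256) and 145-fold (61.9 to 449) more.

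SLC2A5, the fructose carrier GLUT5, was highest in BMAC, at 8.44 CPM (BM-MSC), 54.2 CPM (BMAC) and 1.36 CPM (PBMC). It was 39.8-fold higher in BMAC than in PBMC (25.9 to 64.7). SLC5A3, the sodium-coupled myo-inositol carrier that responds to osmotic stress, stood at 16.8 CPM (BM-MSC) and 209 CPM (BMAC) against 10.2 CPM (PBMC). It was 20.4-fold higher in BMAC than in PBMC (17.4 to 24.1), while BM-MSC and PBMC were 1.64-fold apart (1.35 to 2.01). SLC5A3 overlaps the ribosomal protein gene MRPS6, which had 58.9, 410 and 35.9 CPM, so the reads of this locus cannot be told apart by gene. The sugar phosphate carriers SLC37A2 (overlapping TMEM218) and SLC37A3 were higher in PBMC than in BM-MSC by 4.71-fold (3.96 to 5.63) and 4.49-fold (3.95 to 5.11). SLC5A10, with 52 counts in BM-MSC and 16 in BMAC against 251 in PBMC, overlaps FAM83G and GRAP. The 3 last named were not past the rule in BM-MSC with TMM or median-of-ratios factors. Below the rule stood SLC2A6, SLC2A12 and SLC5A1, each between 10.3 and 49.7 CPM in every library. SLC2A6 overlaps ADAMTS13 and CACFD1, and SLC2A12 overlaps TBPL1.

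Amino acid and peptide carriers formed the largest group after the mitochondrial and peroxisomal carriers, with 28 members. Of 27 measured in each pair with PBMC, 2 were higher and 4 lower in BM-MSC, and 3 were higher and 5 lower in BMAC. SLC15A2, the peptide carrier PEPT2, had 11 counts in BM-MSC and 46 in BMAC against 760 in PBMC. It was 76.4-fold (42.4 to 154) and 16.2-fold (12.0 to 22.3) lower in the marrow cells. It overlaps EAF2, with 34 and 18 counts against 1142, so the reads of this locus cannot be told apart by gene. SLC38A1, a sodium-coupled carrier of glutamine and other neutral amino acids, stood at 33.1 CPM (BM-MSC), 139 CPM (BMAC) and 219 CPM (PBMC), and overlaps LOC106510388. It was 6.62-fold lower in BM-MSC than in PBMC (6.05 to 7.25) and 1.58-fold lower in BMAC (1.5 to 1.67). SLC16A10, a carrier of aromatic amino acids, stood at 20.4 CPM (BM-MSC) and 19.97 CPM (BMAC) against 133 CPM (PBMC), 6.51-fold (5.81 to 7.32) and 6.67-fold (5.91 to 7.55) lower. SLC1A2, a glutamate carrier known from astrocytes, was lower too, at 2.52 and 4.56 CPM against 26.2 CPM.

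SLC43A2, a carrier of large neutral amino acids, stood at 36.6 CPM (BM-MSC), 12.8 CPM (BMAC) and 103 CPM (PBMC), and passed the rule in BMAC (8.10-fold lower, 6.97 to 9.46). SLC3A1, the heavy chain of the cystine exchanger of the kidney, stood at 42.0, 26.1 and 120 CPM and was 4.6-fold lower in BMAC than in PBMC (4.13 to 5.14), though not past the rule with TMM or median-of-ratios factors. Towards the marrow cells, SLC6A17, a vesicular carrier of neutral amino acids known from neurons, stood at 21.3 CPM (BM-MSC) and 51.6 CPM (BMAC) against 3.24 CPM (PBMC). It was 6.59-fold (4.89 to 9.04) and 16-fold (12.0 to 21.7) higher. SLC38A7, a lysosomal glutamine carrier, stood at 24.5, 12.8 and 4.66 CPM and passed the rule in BM-MSC (5.25-fold, 4.08 to 6.84). SLC6A9, the glycine carrier GLYT1, stood at 57.2, 106 and 20.8 CPM and passed it in BMAC (5.08-fold, 4.50 to 5.74). It overlaps CCDC24, with 52.0, 81.7 and 15.2 CPM.

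The exchanger pairs of the SLC7 family were mostly below the rule. SLC7A11, the cystine-glutamate exchanger xCT that feeds glutathione synthesis, stood at 139 CPM (BM-MSC), 234 CPM (BMAC) and 59.0 CPM (PBMC), log2 ratios of 1.23 and 1.97. SLC7A5, the light chain LAT1, had 138 counts in BM-MSC, 270 in BMAC and 37 in PBMC and was 7.45-fold higher in BMAC than in PBMC (5.27 to 10.8). Its heavy chain SLC3A2 stood at 19.9, 38.7 and 14.4 CPM and differed less, with log2 ratios of 0.44 and 1.37. SLC7A6 ran the other way, at 36.3 and 62.7 CPM in BM-MSC and BMAC against 103 CPM in PBMC. The glutamine carriers SLC1A5 and SLC38A2 stood at 83.5 and 183 CPM in BM-MSC and at 79.7 and 198 CPM in BMAC, against 25.8 and 79.3 CPM in PBMC, each below the rule. SLC38A9, which reports lysosomal arginine to the growth regulator mTORC1 and overlaps PLPP1, stood at 75.2, 103 and 176 CPM. SLC1A4, SLC15A3 (which overlaps TMEM132A) and SLC38A6 were within 2-fold in each pair with PBMC.

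Of 9 acid-base carriers measured in BM-MSC against PBMC, 2 were higher and 4 lower, and of 10 in BMAC against PBMC, 1 was higher and 3 lower. SLC9A9, a sodium-proton exchanger of endosomes, had 14931 counts in PBMC and stood at 85.2 CPM (BM-MSC) and 70.8 CPM (BMAC) against 967 CPM (PBMC). It was 11.3-fold (10.8 to 12.0) and 13.6-fold (12.8 to 14.5) lower in BM-MSC and in BMAC. SLC9A7, an exchanger of the Golgi, had 45 counts in BM-MSC and 74 in BMAC against 4238 in PBMC. It was 104-fold (77.6 to 143) and 56.1-fold (44.6 to 71.6) lower. SLC9A8, also of the Golgi, stood at 18.5, 36.4 and 124 CPM and passed the rule in BM-MSC (6.69-fold lower, 5.94 to 7.57). SLC9A4, an exchanger known from the stomach and kidney, ran the other way at 91.8 CPM (BM-MSC) and 70.4 CPM (BMAC) against 6.09 CPM (PBMC). It was 15.1-fold (12.2 to 18.8) and 11.6-fold (9.36 to 14.4) higher.

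SLC4A7, a sodium-bicarbonate cotransporter, stood at 25.6 CPM (BM-MSC) and 35.9 CPM (BMAC) against 403 CPM (PBMC). It was 15.7-fold (14.3 to 17.4) and 11.2-fold (10.3 to 12.3) lower in the marrow cells. Its relative SLC4A4 stood at 46.9, 82.2 and 39.6 CPM, below the rule. The anion carrier SLC26A11 stood at 30.6 and 29.7 CPM in BM-MSC and BMAC against 6.73 CPM in PBMC, 4.55-fold (3.68 to 5.67) more in BM-MSC and 4.41-fold (3.56 to 5.51) more in BMAC, the second just short of the rule after the added 1 CPM and past it with 0.5 CPM added or with TMM or median-of-ratios factors. SLC26A2, the sulfate carrier needed for cartilage proteoglycans, stood at 30.0, 32.4 and 14.7 CPM. The summed level of the 10 members was 372 CPM (BM-MSC) and 421 CPM (BMAC) against 1860 CPM (PBMC). In PBMC alone, most of the sum came from SLC9A9, SLC4A7 and SLC9A7. The group's median log2 ratio had the other sign, at 0.24 in BM-MSC and 0.94 in BMAC against PBMC.

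Carriers of sodium, potassium, chloride and calcium had median log2 ratios of -0.92 in BM-MSC and -0.996 in BMAC against PBMC, with 1 higher and 2 lower of 9 measured in BM-MSC, and 1 higher and 1 lower of 8 in BMAC. SLC8A1, the sodium-calcium exchanger NCX1, had 63 counts in BM-MSC and 1072 in BMAC against 3643 in PBMC. It was 63.9-fold lower in BM-MSC than in PBMC (49.8 to 83.3) and 3.33-fold lower in BMAC (3.11 to 3.57). Its relative SLC8A3 ran the other way, at 24.8 CPM (BM-MSC) and 57.1 CPM (BMAC) against 5.37 CPM (PBMC), 4.61-fold (3.64 to 5.91) and 10.6-fold (8.47 to 13.5) higher. SLC24A4, a potassium-dependent exchanger of sodium and calcium, had 26 and 18 counts in BM-MSC and BMAC against 906 in PBMC. It was 38.5-fold (26.1 to 59.3) and 49.3-fold (31.0 to 83.5) lower. SLC12A2, a cotransporter of sodium, potassium and chloride that overlaps LOC100516424 and LOC102162098, stood at 24.4, 25.4 and 41.5 CPM.

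Phosphate, sulfate and carboxylate carriers had no member past the rule towards BM-MSC or BMAC when set against PBMC. SLC16A6, a relative of the monocarboxylate carriers that overlaps ARSG, had 19 counts in BM-MSC and 5 in BMAC against 334 in PBMC. It was 19.4-fold (12.2 to 32.7) and 65.4-fold (27.7 to 203) lower. SLC16A7, the monocarboxylate carrier MCT2, stood at 27.0 CPM (BM-MSC), 1.26 CPM (BMAC) and 17.2 CPM (PBMC). It was lower in BMAC than in PBMC by 13.7-fold (8.61 to 23.1) and 1.57-fold higher in BM-MSC than in PBMC (1.35 to 1.83). SLC13A5, the citrate carrier, had 29 counts in BM-MSC, 90 in BMAC and 186 in PBMC, and overlaps C12H17orf100 and FBXO39. It was 7.09-fold lower in BM-MSC than in PBMC (4.78 to 10.9), though not past the rule with median-of-ratios factors. The phosphate carriers SLC20A1 and SLC20A2, present in most cells, stood at 73.2 and 56.9 CPM (BM-MSC), 151 and 125 CPM (BMAC) and 49.0 and 78.3 CPM (PBMC). SLC17A5, which exports sialic acid from lysosomes, stood at 11.9, 18.9 and 45.1 CPM.

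Of 18 carriers of vitamins, choline, carnitine and nucleosides, 4 were higher and 2 lower in BM-MSC against PBMC, and 3 higher and 2 lower in BMAC. SLC44A1, the choline carrier CTL1, stood at 148 CPM (BM-MSC) and 173 CPM (BMAC) against 34.6 CPM (PBMC), 4.27-fold (3.89 to 4.70) and 4.99-fold (4.55 to 5.49) higher. SLC44A3 stood at 43.9 and 71.1 CPM against 2.72 CPM, 16.1-fold (11.8 to 22.6) and 26.1-fold (19.2 to 36.5) higher, and overlaps the calponin gene CNN3, which had 866 and 1221 counts in BM-MSC and BMAC against 5 in PBMC. SLC44A2, in contrast, stood at 168, 149 and 219 CPM, within 2-fold. SLC5A6, the biotin and pantothenate carrier that overlaps ATRAID, stood at 34.5 CPM (BM-MSC), 10.3 CPM (BMAC) and 5.05 CPM (PBMC), and passed the rule in BM-MSC (6.83-fold, 5.39 to 8.77). SLC43A3, a carrier of purine nucleobases, stood at 24.0, 14.1 and 3.04 CPM and passed it there as well (7.87-fold, 5.81 to 10.9), and in BMAC with 0.5 CPM added or with TMM or median-of-ratios factors. SLC17A9, which loads vesicles with ATP, passed it in BMAC, at 19.2, 28.3 and 5.05 CPM (5.60-fold, 4.39 to 7.23).

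The lower members of that group were relatives of the folate carrier. SLC46A3, a lysosomal carrier, had 20 counts in BM-MSC and 22 in BMAC against 780 in PBMC, 43.1-fold (27.7 to 71.0) and 34.7-fold (22.8 to 55.7) lower. SLC46A2 had 6 and 4 counts against 174, and was under the floor of 10 CPM with TMM or median-of-ratios factors. SLC22A5, the carnitine carrier OCTN2, overlaps RAD50 and stood at 45.8 and 60.8 CPM against 183 CPM, just below the rule at a log2 ratio of -1.98 in BM-MSC. SLC23A2, the ascorbate carrier SVCT2, stood at 81.9, 128 and 137 CPM.

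The monoamine carriers had their highest level in PBMC. SLC6A3, the dopamine carrier, had 0 counts in BM-MSC and 1 in BMAC against 307 in PBMC. It was at least 113-fold lower in BM-MSC, with 0 taken as 3 counts, and 301-fold lower in BMAC (53.5 to 11910). SLC6A4, the serotonin carrier of neurons and platelets, had 66 counts in BM-MSC and 17 in BMAC against 219 in PBMC, and was 12.6-fold lower in BMAC (7.70 to 22.0). It overlaps LOC106505485. The platelet markers ITGA2B and GP9 stood at 1.82 and 45.7 CPM (BM-MSC), 0.595 and 34.1 CPM (BMAC) and 14.8 and 18.2 CPM (PBMC), and their part in the SLC6A4 value was not tested. SLC6A8, the creatine carrier, had 180 counts in BM-MSC, 80 in BMAC and 10 in PBMC, and was 16.3-fold higher in BM-MSC (8.65 to 34.5). The taurine carrier SLC6A6 differed little, at 16.2, 13.7 and 14.5 CPM.

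Mitochondrial carriers were the largest family, with 32 members of 45 symbols. In BM-MSC against PBMC 12 of 30 measured members lay within 2-fold, where 41.9% of all genes did, and the median log2 ratio was 0.53. SLC25A6, 1 of the ATP-ADP carriers of the inner membrane, stood at 421, 382 and 320 CPM in BM-MSC, BMAC and PBMC. Its relative SLC25A5 stood at 44.1 CPM (BM-MSC) and 33.7 CPM (BMAC) against 6.73 CPM (PBMC), 6.55-fold (5.33 to 8.12) and 5.0-fold (4.04 to 6.23) higher. The phosphate carrier SLC25A3 stood at 122, 114 and 49.1 CPM, below the rule.

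The ATP-Mg and phosphate carriers, which are regulated by calcium, parted. SLC25A23 stood at 23.9 CPM in both BM-MSC and BMAC against 2.01 CPM in PBMC, 11.9-fold higher in each (8.26 to 17.8 and 8.23 to 17.8). SLC25A25 stood at 12.5 CPM (BM-MSC) and 7.47 CPM (BMAC) against 141 CPM (PBMC), 11.3-fold (9.84 to 13.1) and 18.9-fold (15.7 to 23.1) lower. SLC25A24, a close relative, stood at 18.3, 42.8 and 62.5 CPM, below the rule. SLC25A21, which carries oxodicarboxylates, stood at 82.9, 36.1 and 14.8 CPM and passed the rule in BM-MSC (5.62-fold, 4.88 to 6.49). The mitochondrial iron importers SLC25A37 and SLC25A28 stood at 86.3 and 53.1 CPM (BM-MSC), 180 and 31.4 CPM (BMAC) and 52.4 and 21.2 CPM (PBMC), each below the rule. SLC25A33 was nearly level, between 13.6 and 15.5 CPM.

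Of the 6 carriers of nucleotide sugars and acetyl-CoA, 5 lay within 2-fold in each pair with PBMC and 6 between BM-MSC and BMAC. SLC35A1, which brings CMP-sialic acid into the Golgi, stood at 30.3, 39.8 and 57.4 CPM in BM-MSC, BMAC and PBMC. SLC35A3, a carrier of UDP-N-acetylglucosamine, stood at 56.2, 68.0 and 58.1 CPM, and SLC33A1, the acetyl-CoA carrier, at 38.0, 29.4 and 25.9 CPM. Of the 2 members of the SLC10 family, SLC10A3 stood at 56.7 and 44.7 CPM in BM-MSC and BMAC against 7.70 CPM in PBMC, 7.36-fold (6.08 to 8.98) and 5.80-fold (4.77 to 7.11) higher.

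**Figure D4:**
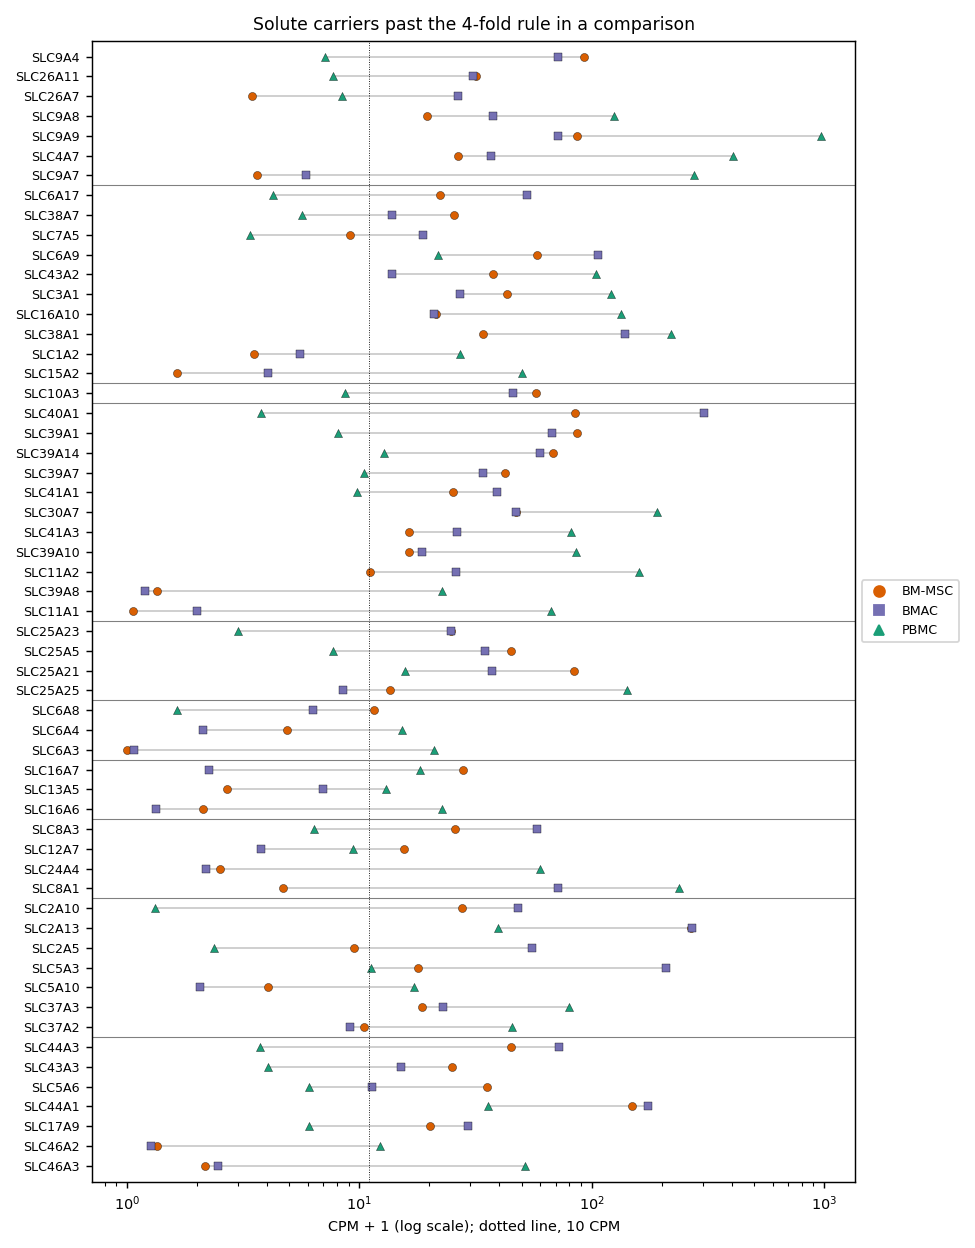
CPM + 1 on a log scale of the 57 solute carriers past the 4-fold rule in at least 1 of the 3 pairs, in BM-MSC, BMAC and PBMC, 1 library each. Horizontal lines part the substrate groups, and within a group genes run down from the highest ratio of BM-MSC to PBMC. PBMC lies far from both marrow libraries in rows such as SLC40A1 and SLC9A7, and BMAC lies lowest in the row of SLC16A7, at 1.26 CPM.

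BM-MSC and BMAC were then set against each other, and 7 carriers passed the rule. Of the 2 higher members 2 were under 10 CPM in BMAC, and of the 5 lower members 3 were under 10 CPM in BM-MSC. Such a gene was measured through its higher library alone, so its ratio could only favour that library. Higher in BM-MSC were SLC16A7, the monocarboxylate carrier MCT2, and SLC12A7, a potassium-chloride cotransporter. SLC16A7 had 461 counts in BM-MSC against 19 in BMAC, 21.5-fold more (13.6 to 36.0). SLC12A7 had 248 counts in BM-MSC against 42 in BMAC, 5.23-fold more (3.76 to 7.44), with 130 counts in PBMC. It was not past the rule with 5 CPM added.

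Higher in BMAC were the calcium, inositol, anion, fructose and glutamine carriers SLC8A1, SLC5A3, SLC26A7, SLC2A5 and SLC38A1. SLC8A1 stood at 3.69 CPM in BM-MSC against 70.9 CPM in BMAC, 19.2-fold apart (14.9 to 25.2). SLC5A3 stood at 16.8 against 209 CPM, 12.4-fold apart (11 to 14.1), and its overlapping row MRPS6 at 58.9 against 410 CPM. SLC26A7, an anion exchanger known from the stomach and kidney, had 42 counts in BM-MSC against 387 in BMAC, 10.4-fold apart (7.55 to 14.7), with 114 in PBMC. It overlaps LOC110260261, with 4 counts against 197. SLC2A5 was 6.42-fold apart (5.37 to 7.72) and SLC38A1 4.19-fold (3.81 to 4.6), which was not past the rule with TMM or median-of-ratios factors. Without members that overlap another row, 2 carriers were lower in BM-MSC in place of 5. SLC40A1, with a log2 ratio of -1.84, was the next below the rule. At the other end, SLC2A13 (266 against 268 CPM) and SLC25A23 (both 23.9 CPM) were level, with intervals of 0.966 to 1.05 and 0.867 to 1.16 for the ratio of the higher to the lower library. The direction of SLC2A13 turned with TMM and median-of-ratios factors.

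**Figure D5:**
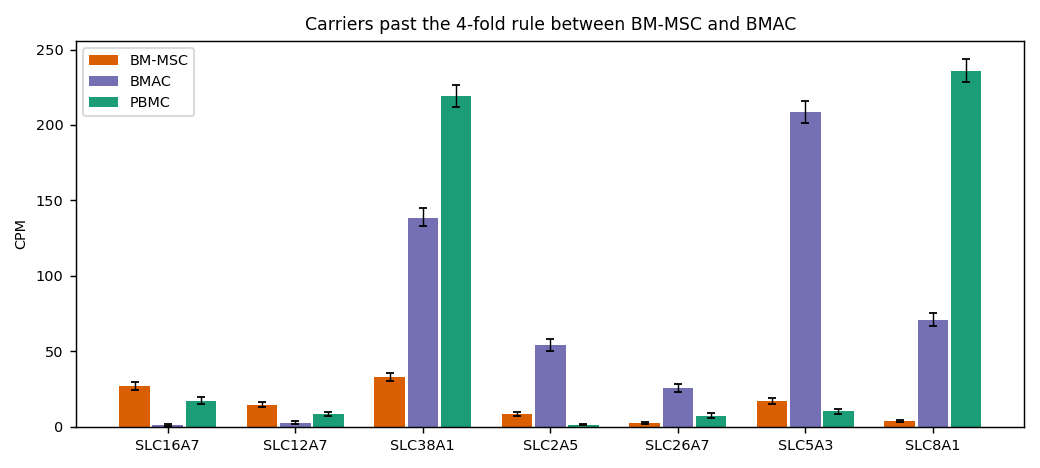
CPM of the 7 solute carriers past the 4-fold rule between BM-MSC and BMAC, with PBMC shown beside them. Bars are single libraries and whiskers are 95% exact Poisson intervals for counting error alone. SLC16A7 and SLC12A7 are higher in BM-MSC, and the other 5, such as SLC8A1 at 3.69 CPM (BM-MSC) and 70.9 CPM (BMAC), are higher in BMAC. Of these, SLC5A3, SLC26A7 and SLC38A1 overlap other rows.

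Partner proteins and carriers under other names were read for context. Of 5 partner genes 4 were measured in each pair, with 1 higher and 0 lower in BM-MSC against PBMC, 1 and 1 in BMAC against PBMC, and 1 and 0 in BM-MSC against BMAC. BSG (basigin), the chaperone of several monocarboxylate carriers, stood at 192 CPM (BM-MSC) and 199 CPM (BMAC) against 30.9 CPM (PBMC), 6.21-fold (5.64 to 6.85) and 6.44-fold (5.85 to 7.11) higher. EMB (embigin), the chaperone of MCT2, stood at 28 CPM (BM-MSC), 4.03 CPM (BMAC) and 47.7 CPM (PBMC). It was lower in BMAC than in PBMC by 11.8-fold (9.09 to 15.6) and higher in BM-MSC than in BMAC by 6.94-fold (5.31 to 9.22). Of 7 sodium pump genes 4 were measured, with 1 higher and 1 lower in BM-MSC against PBMC and 1 higher and 0 lower in BMAC. ATP1B1, a beta subunit, was 10.8-fold higher in BM-MSC (8.15 to 14.5) and 9.57-fold higher in BMAC (7.22 to 12.9).

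Of 38 carriers under other symbols, 29 were measured in BM-MSC against PBMC, 2 higher and 3 lower, 28 in BMAC against PBMC, 2 higher and 2 lower, and 27 in BM-MSC against BMAC, 1 higher and 1 lower. CTNS, the lysosomal cystine exporter, stood at 137 CPM (BM-MSC) and 142 CPM (BMAC) against 13.9 CPM (PBMC), 9.85-fold (8.56 to 11.4) and 10.2-fold (8.88 to 11.8) higher. UCP2, a mitochondrial carrier of the SLC25 family, had 29 counts in BM-MSC and 3 in BMAC against 1078 in PBMC, 41.1-fold (28.4 to 61.6) and 352-fold (120 to 1709) lower. SLCO3A1, an organic anion carrier, stood at 121, 21.0 and 403 CPM, 5.76-fold higher in BM-MSC than in BMAC (5.12 to 6.5). SLCO4C1 ran the other way in that pair, with 15 counts in BM-MSC against 172 in BMAC. The pyruvate carrier subunit MPC1 was level, at 57.7, 62.7 and 60.1 CPM.

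The threshold that chose the members was crossed narrowly by several genes. Just inside it were SLC25A11, which overlaps RNF167, and SLC25A42, both with 10.5 CPM in their highest library, and SLC6A8 with 10.5 CPM in BM-MSC. Just outside were SLC10A1 with 9.84 CPM in PBMC, SLC12A1 with 9.59 CPM in BMAC and SLC25A15 with 9.59 CPM in BMAC. Of the 154 members, 37 overlap another row that holds at least 25% of their count, 14 of them among the 57 past the rule, and SLC11A2 and SLC25A6 lie on unplaced scaffolds where overlap was not read.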

How the data were processed

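Each library was deposited by the authors as raw counts per gene row, which are whole numbers with a different total in each file. Per the submitters' processing notes, the tools were Bowtie2 and bedtools (no versions or roles listed). Which genome build and annotation were used, whether counting used strand, and how multi-mapping reads were handled is not given in the sources used here. All 3 files list the same 26965 rows under 26466 symbols. Rows of 81 symbols were summed, none of them a member. Counts were divided by the library total, with no scaling by transcript length, so levels are compared between libraries and not between genes. Overlap between genes was read from the RefSeq table of Sscrofa11.1, which holds all 154 members, and no coordinates were taken from it. No sequences were used here.

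Python 3.11.15 with numpy 2.4.6, pandas 2.3.3 and scipy 1.17.1 was used. TMM factors came from edgeR 4.0.16 and median-of-ratios factors from DESeq2 1.42.0, in R 4.3.3, with no test. The size rule and the intervals were run on simulated Poisson counts with known folds. Such counts hold no spread between animals or preparations, so this run bears on counting error alone. The members, substrate groups and lists were chosen with earlier results of these data known. Any member could be named; folds with intervals were given for the largest and smallest ratios, the highest members and those near the threshold. Overlapping rows, UCP2 and the other genes outside the list were named for their bearing on members. Alternatives were other scaling, pseudocounts of 0.5 and 5 CPM, floors of 1 and 50 CPM or of 10 counts alone, 2-fold and 8-fold rules, and leaving out overlapping members. Of the 118 symbols listed, 3 were not analysed here. Some members are not reported here by name.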

Additional observations from a re-analysis of the deposited data

How the results depend on the processing

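No paired analysis was possible because each population has 1 library, and for the same reason no library could be left out. Pseudocounts and scaling turned the sign of no member in a pair where it was past the rule. With 5 CPM added, 11 carriers were higher in BM-MSC against PBMC (20 as reported), 15 lower in BMAC against PBMC (23) and 1 higher in BM-MSC against BMAC (2). With a 2-fold rule the counts of higher and lower members were 47 and 49, 53 and 42, and 8 and 18 in the 3 pairs, and with an 8-fold rule 6 and 14, 10 and 14, and 1 and 2. A floor of 50 CPM left 8 and 16, 12 and 13, and 0 higher in BM-MSC against BMAC. Shares of all genes in each direction are not given for these pseudocounts, rules and floors, so the counts describe members alone. At the floor of 10 CPM, 35.1%, 35.8% and 80.7% of members lay within 2-fold, beside 41.9%, 48.8% and 80.7% of all genes. Without overlapping members, 2 were lower in BM-MSC against BMAC. The median log2 ratio of BM-MSC over PBMC (0.33) became 0.69 (TMM) and 0.72 (median of ratios), -0.23 with a floor of 1 CPM, -0.79 with 50 CPM and -0.246 with 10 counts alone. That of BMAC over PBMC (0.18) became -0.30, -0.53 and -0.33 with these floors. That of BM-MSC over BMAC (-0.06) became 0.0084 with median-of-ratios factors, 0.018 with 10 counts alone and 0.0018 without overlapping members. Floors change which carriers are measured; other causes were not tested.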
